A study of Capra hircus with 6 samples.

Results

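The 200 most abundant annotated genes of goat ear margin fibroblasts and of cultures induced from them towards mammary epithelial cells took between 18.6% and 25.4% of the counts of each library. They were chosen by their measured level alone. Counts of each annotated gene were divided by the total of the library, expressed as counts per 1000000 (CPM) and averaged over all 6 libraries, and the 200 highest were taken from the 19500 annotated genes with a length from 200 bp to under 10 kb. The whole table holds 20484 annotated genes and 24950 features. The levels that chose the genes are therefore a description, and only the change between the groups was tested. The last 2 genes inside had a mean of 492 and 490 CPM, and the first 2 outside had 487 and 486 CPM. A further 28 annotated genes of 10 kb or longer, 6 assembled loci and 1 other record lay above the level of rank 200 and were left out by the rule on length and type.

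The CK group consisted of ear margin fibroblasts of Guanzhong dairy goats aged 2 to 3 months, taken before induction on day 0. The 5i8d group consisted of the same kind of cells after 8 days in a medium with Forskolin, TTNPB, VPA, Repsox and Tranylcypromine, an activator of adenylyl cyclase, an agonist of retinoic acid receptors and inhibitors of histone deacetylases, of a TGF-β receptor kinase and of monoamine oxidases and a histone demethylase. The labels carry BFRTV in both groups and call the induced libraries i58d. The paper writes 5i and 5i8d, and these names were taken to mean the same. The labels give 3 libraries for each group, of which the paper lists CK1, CK2, 5i8d1 and 5i8d2. All 6 were compared here, and the counts of changed genes are given again for the paper's 4. The dishes were harvested with their primary colonies. The paper calls its 2 libraries of each group biological replicates, and the labels call the 3 of each group replicates. The sources used here do not give the number of goats, whether CK3 and 5i8d3 came from cultures of their own, or any sorting of the induced cells, so a p-value measures only how far these 6 libraries differ. The totals ran from 28162284 counts in CK3 to 37544673 in 5i8d2, and a gene of the 200 had at least 179 counts in any library.

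In most cells a small part of the genes supplies a large part of the messenger RNA. In fibroblasts these are typically genes for collagens and other matrix proteins, the cytoskeleton, ribosomal proteins and translation factors, and in epithelial cells keratins stand among them. In mammary epithelium that makes milk, genes for caseins and whey proteins join them. The IDs of the deposited tables carry no gene names, and none matched the reference table (0 of 24950), so no gene below is identified with any of these and the markers of either cell type could not be checked. The genes with the largest rise and fall in fold and in CPM, 4 in all, are given by ID, and the others by their rank of mean CPM and their length. A rank orders genes by the reads they took, which grow with length, and not by their number of RNA molecules. In bulk RNA, fewer cells of a type and less RNA per cell cannot be told apart.

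The libraries numbered 3 stood apart, and did so together. In CK3, 49 of the 200 genes differed more than 2-fold from the mean log2 CPM of CK1 and CK2, 18 upwards and 31 downwards. In 5i8d3, 37 differed more than 2-fold from 5i8d1 and 5i8d2, 22 upwards and 15 downwards. Of the genes past this limit in both, 12 were higher in both, 13 were lower in both and 0 went opposite ways. The shifts had the same sign in 167 of the 200 genes, with a correlation of 0.79 over the genes (Spearman's rho 0.79), which share libraries and scaling. What these libraries share is not given in the labels, and its part in the results was not tested.
Of the 38 genes higher in the paper's 4 libraries, all 38 were also higher in 5i8d3 than in CK3, and of the 51 lower, 48 were lower. Of the 111 not called, 80 had the same sign in this pair. CK3 and 5i8d3 took part in choosing the 200 genes, so that this pair is not independent of the choice.
CK1 and CK2 were closest to each other, with 0 of the 200 genes more than 2-fold apart, whereas 5i8d1 and 5i8d2 were more than 2-fold apart at 44. Over the 200 genes the median SD of log2 CPM between libraries was 0.36 among CK and 0.48 among 5i8d libraries (n = 3 each), against 0.43 and 0.47 over all features tested. It was 0.074 between CK1 and CK2 alone and 0.34 between 5i8d1 and 5i8d2 alone. These SDs are on the scale of the test (TMM), whereas the 2-fold limits above use library totals.

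**Figure D1:**
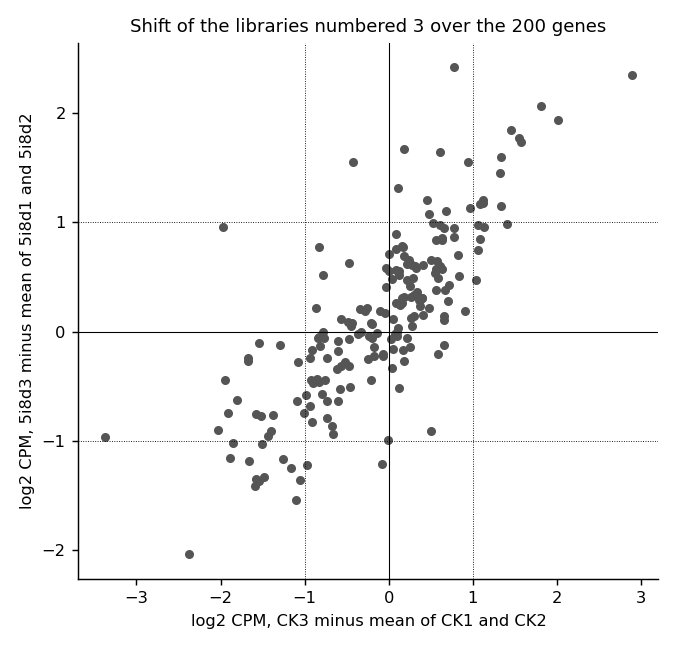
Shift of log2 CPM of CK3 from the mean of CK1 and CK2 (x axis) against that of 5i8d3 from the mean of 5i8d1 and 5i8d2 (y axis), 1 point for each of the 200 genes, with dotted lines at 2-fold. The points rise together, 167 of 200 with the same sign.

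The 10 genes highest by the mean over all libraries took a smaller part of the reads in the 5i8d libraries, but the 10 highest of each library itself did not part the groups. Their share of all counts was 8.48%, 7.82% and 5.89% in CK1, CK2 and CK3. It was 2.69%, 3.62% and 3.92% in 5i8d1, 5i8d2 and 5i8d3. Every 5i8d library lay below every CK library. The CK libraries averaged 7.40% ± 1.34 and the 5i8d libraries 3.41% ± 0.64 (SD, n = 3 per group), a difference of -3.99 percentage points (two-sided exact permutation test over libraries, p = 0.1, the smallest that 3 against 3 allow, and 0.2 adjusted over the 2 shares tested). Taken over the counts of the annotated genes of this length range alone, the difference was -4.87 percentage points. The 10 highest genes of each library itself, which differ from library to library, took 9.07%, 8.32% and 6.75% of the counts in the CK libraries and 4.32%, 5.61% and 7.07% in the 5i8d libraries. Here 5i8d3 lay above CK3, and the difference was -2.38 percentage points (two-sided exact permutation test, p = 0.2, unadjusted). The 200 genes as a whole overlapped between the groups. Their share was 25.4%, 24.8% and 22.8% for CK1, CK2 and CK3, and 18.6%, 24.5% and 25.2% for 5i8d1, 5i8d2 and 5i8d3 (two-sided exact permutation test over libraries, p = 0.6, and 0.6 adjusted over the 2 shares tested). The low share of 5i8d1 set the direction of this difference, which was -1.57 percentage points with it and 0.50 without it. The size also depended on the counts and genes taken. It was -3.01 over the counts of annotated genes of this length range alone (p = 0.2) and -4.72 for 200 genes chosen by the mean of their ranks (p = 0.1, the smallest possible), both unadjusted from the same exact permutation test. Within this set, the counts were also spread over more genes in the 5i8d libraries. By group means, 59 of the 200 were among the 200 highest in the 5i8d group alone and 37 in the CK group alone. This choice by itself bears on how many genes hold the counts, and the difference was not tested. Of the 200, the highest 22 genes held 50% of the counts of the set in CK1, 25 in CK2 and 28 in CK3, against 38, 42 and 37 in 5i8d1, 5i8d2 and 5i8d3.

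**Figure D2:**
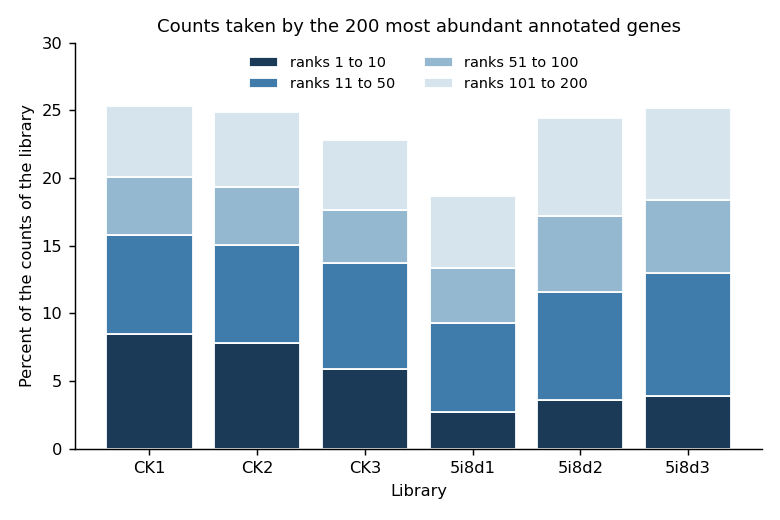
Percent of the counts of each library (y axis, from 0) taken by the 200 genes, stacked by their rank of mean CPM over the 6 libraries. The darkest part, ranks 1 to 10, runs from 5.89% to 8.48% in the CK libraries and from 2.69% to 3.92% in the 5i8d libraries.

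Of the 10 highest genes, 5 fell, 1 rose and 4 did not pass the test (edgeR's quasi-likelihood test, adjusted p under 0.05 over all features). The 6 called were 60%, against 30.1% of all features tested, and the 5 that fell were 50%, against 11.2%. A mean over both groups favours genes with a very high level in 1 of them, so nothing is read from these shares. The highest was gene2091, of 5501 bp. It had 17147, 16057 and 7858 CPM in CK1, CK2 and CK3 and 1856, 2940 and 1921 CPM in 5i8d1, 5i8d2 and 5i8d3. The groups did not overlap, although CK3 stood well below CK1 and CK2. Its log2 fold change on the scale of the test was -2.76 (standard error 0.38, adjusted p = 0.0020), and its change of -11449 CPM was the largest loss of the 200.
The gene ranked 2, of 1908 bp, had 11717, 11579 and 13213 CPM in the CK libraries and 1010, 1248 and 929 CPM in the 5i8d libraries. It was high in CK3 as well as in CK1 and CK2, and its log2 fold change was -3.70 (standard error 0.30, adjusted p = 0.00026).
The gene ranked 4, of 5933 bp, varied more, with 14550, 11230 and 5719 CPM in the CK libraries and 878, 391 and 246 CPM in the 5i8d libraries (log2 fold change -4.54, standard error 0.60, adjusted p = 0.0017). That ranked 6, of 5410 bp, had 11862, 11149 and 4266 CPM against 920, 944 and 480 CPM (log2 fold change -3.70). Both were lowest in CK3 among the CK libraries and lowest in 5i8d3 among the 5i8d libraries. The gene ranked 7, of 8357 bp, had 7740, 7337 and 8405 CPM against 1682, 1618 and 2042 CPM (log2 fold change -2.31), and its CK libraries were close to each other.
The other 4, ranked 3, 5, 8 and 10, had log2 fold changes of -0.10, -0.01, -0.59 and -0.29. The gene ranked 3, of 5790 bp, had 6290, 6221 and 6423 CPM in the CK libraries and 4816, 6911 and 8041 CPM in the 5i8d libraries, which lay on both sides of them (standard error 0.31). That ranked 10, of 8429 bp, had 5783, 5183 and 1474 CPM against 4092, 5182 and 2063 CPM, so that the libraries numbered 3 were the low ones in both groups. The gene ranked 8, of 3152 bp, had 5518, 4975 and 5714 CPM against 3706, 3261 and 5118 CPM, and it alone of these 4 passed with the replicate number as a block (adjusted p = 0.019). Neither labels nor paper state that the numbers pair the libraries.

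The gene that rose among the 10 highest had the highest mean of the 5i8d group among the annotated genes of this length range. This was gene6500, of 1387 bp, with 84.9, 91.7 and 93.9 CPM in CK1, CK2 and CK3 and 5388, 8696 and 10118 CPM in 5i8d1, 5i8d2 and 5i8d3. By the mean of the group it stood at place 2036 in the CK group and at place 1 in the 5i8d group. In 5i8d1, 5i8d2 and 5i8d3 it stood at places 2, 1 and 2. Places here and below are among the annotated genes from 200 bp to under 10 kb. Its log2 fold change was 6.32 (standard error 0.41, adjusted p = 0.00015), and its gain of 7977 CPM was the largest of the 200.
The largest fold change belonged to gene19606, of 3559 bp and rank 56. It had 6.63, 5.07 and 8.56 CPM in the CK libraries, from 179 counts upwards, and 1560, 2127 and 2711 CPM in the 5i8d libraries. No library of the CK group came near the lowest 5i8d library, and the log2 fold change was 8.13 (standard error 0.48, adjusted p = 0.00011). It moved from place 9540 in the CK group to place 20 in the 5i8d group.
The largest fall in fold belonged to gene998, of 4825 bp and rank 64. It had 2747, 2279 and 793 CPM in the CK libraries and 70.3, 52.3 and 26.7 CPM in the 5i8d libraries, again without overlap, and it was lowest in the library numbered 3 of either group. Its log2 fold change was -5.44 (standard error 0.60, adjusted p = 0.00080), and it moved from place 26 to place 3989. By group means, gene6500, gene19606 and gene998 were each among the 200 highest in 1 group alone, and such a choice favours large changes.

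**Figure D3:**
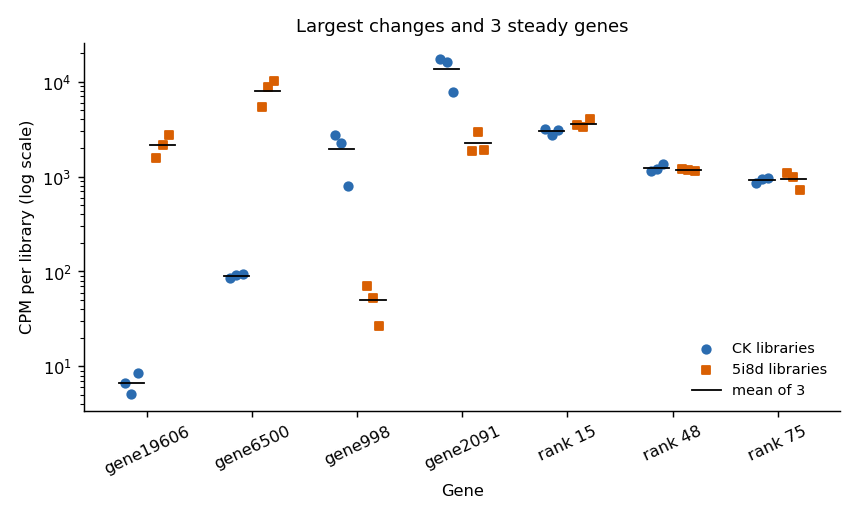
CPM in each library on a log scale for the 4 genes with the largest changes and for 3 steady genes, ranked 15, 48 and 75, with CK libraries as circles, 5i8d libraries as squares and a line at the mean of 3. The groups are apart for the 4 genes named by ID, and close together for the steady ones.

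Other large gains went to genes that had been at far lower levels in fibroblasts. The gene ranked 17, of 2399 bp, had 192, 176 and 110 CPM in the CK libraries and 5478, 6394 and 3812 CPM in the 5i8d libraries (log2 fold change 4.87, standard error 0.35, adjusted p = 0.00018). The gene ranked 24, of 1459 bp, had 96.7, 92.1 and 82.3 CPM against 2297, 5252 and 3639 CPM. That ranked 146, of 5247 bp, had 8.32, 9.66 and 11.2 CPM against 832, 1159 and 1471 CPM, the largest log2 fold change after that of gene19606, at 6.72 (standard error 0.41, adjusted p = 0.00011). In all 3, the lowest 5i8d library was more than 10 times the highest CK library. The genes ranked 43 and 90, of 5281 and 1679 bp, rose from a mean of 206 to 2379 CPM and from 46.6 to 1580 CPM.
The gene ranked 12, of 4591 bp, started from a high level instead, with 976, 992 and 1419 CPM in the CK libraries, and reached 3491, 6880 and 9765 CPM in the 5i8d libraries (log2 fold change 2.40, standard error 0.47, adjusted p = 0.0085). By contrast, the gene ranked 11, of 2725 bp, did not pass although it had 1044, 1249 and 3352 CPM against 2762, 3982 and 11363 CPM. Its level in CK3 was above that in 5i8d1, and 5i8d3 stood far above the other induced libraries (log2 fold change 1.5, standard error 0.73, adjusted p = 0.17). With the block on the replicate number it passed (log2 fold change 1.44, adjusted p = 0.00045).
Other large losses in fold were those of the genes ranked 38 and 116. The gene ranked 16 is given for its small spread, and those ranked 21 and 118 fell further in fold (log2 fold change -3.68 each). The gene ranked 38, of 4010 bp, had 3449, 2733 and 1937 CPM in the CK libraries and 199.3, 77.2 and 64.8 CPM in the 5i8d libraries (log2 fold change -4.75, standard error 0.53, adjusted p = 0.00086). That ranked 116, of 2182 bp, had 1407, 1186 and 1148 CPM against 133, 49.1 and 69.2 CPM. The gene ranked 16, of 9919 bp and the longest of the 200, had 4904, 4901 and 5293 CPM against 452, 488 and 480 CPM. It combined a large fall with little spread in either group (log2 fold change -3.59, standard error 0.27, adjusted p = 0.00020).

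Over the whole set, 33 genes rose and 38 fell, and 129 did not pass the test. The 71 changed genes were 35.5% of the 200, against 30.1% of the 17757 features tested, where 18.9% were higher and 11.2% lower. Among the 200, 16.5% were higher and 19.0% lower. All 33 that rose were higher in every 5i8d library than in every CK library in CPM, and 37 of the 38 that fell were lower in every one. The exception was the gene ranked 150, of 4610 bp, with 1010, 946 and 400 CPM in the CK libraries and 332, 412 and 339 CPM in the 5i8d libraries. In all, 56 genes (28%) were higher and 46 (23%) were lower without overlap, against 29.9% and 16.1% of the features tested. Over all 200 genes the median absolute log2 fold change was 0.70, against 0.77 over all features tested. Among the genes that passed, the median was 2.74 for those that rose, from 0.71 to 8.13, and in absolute value 2.15 for those that fell, from 0.74 to 5.44.
In the paper's 4 libraries, 38 of the 200 were higher and 51 lower, against 41.6% of all features tested called (24.5% higher and 17.1% lower). Blocking all 6 libraries by their number, 57 were higher and 58 lower, against 47.7% of all features (26.7% higher and 21.0% lower). The block added 44 genes and dropped none of the 71, but it rests on a pairing that neither labels nor paper state.

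**Figure D4:**
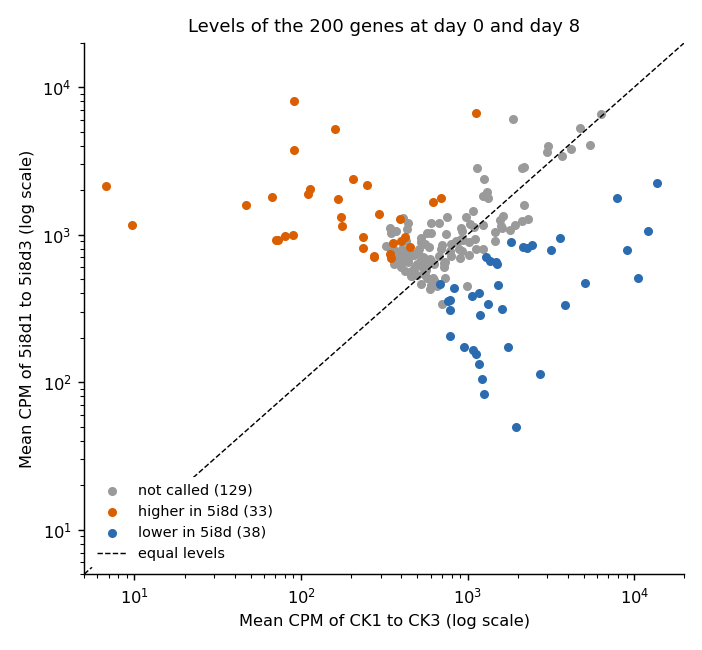
Mean CPM of the 3 CK libraries (x axis) against that of the 3 5i8d libraries (y axis) for the 200 genes, both on a log scale, with genes that rose in orange (33), genes that fell in blue (38) and the other 129 in grey. The genes that rose reach down to 6.75 CPM in the CK group and those that fell down to 49.8 CPM in the 5i8d group.

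The 38 genes that fell held 10.9% ± 1.88 of all CK counts and 2.04% ± 0.16 of all 5i8d counts (SD over 3 libraries). The 33 that rose went from 0.843% ± 0.037 to 6.12% ± 0.88. The 129 that did not pass went from 12.6% ± 0.57 to 14.6% ± 2.75. Summed over genes, the falls came to -88466 CPM and the rises to 52791 CPM. The 5 largest losses, at ranks 1, 2, 4, 6 and 7, made up -46908 CPM of the former, and the 5 largest gains of the 200, at ranks 9, 12, 17, 11 and 24, came to 26422 CPM, of which the gene ranked 11 did not pass the test. These sums follow from the calls and carry no test of their own.

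At ranks 1 to 10 the median log2 fold change was -1.45, at ranks 11 to 50 it was -0.37, at ranks 51 to 100 -0.06 and at the last 100 ranks 0.24. The medians were -1.28, -0.19, 0.11 and 0.40 when libraries were scaled by their totals alone, so that the sign at ranks 51 to 100 depends on the scaling. The median of all features moved from 0.04 to 0.21 between these scalings, and that of the 200 genes from 0.05 to 0.20. The median of the 200 was -0.05 without 5i8d2 and -0.07 without 5i8d3. At ranks 1 to 10, 1 gene rose and 5 fell (60% called). Of the 40 genes at ranks 11 to 50, 6 rose and 9 fell (37.5% called), of the 50 at ranks 51 to 100, 10 rose and 10 fell (40%), and of the last 100, 16 rose and 14 fell (30%), against 30.1% of all features tested. The next 200 genes by rank had 33 that rose and 31 that fell (32%), with a median of -0.09 (0.07 by the totals alone).
The median absolute log2 fold change was 2.54 at ranks 1 to 10, 0.90 at ranks 11 to 50, 0.74 at ranks 51 to 100, 0.65 at the last 100 ranks and 0.70 over the next 200 genes. Over all features tested it was 0.77. A mean over both groups favours a gene with a very high level in 1 of them, so that large changes among the highest ranks come partly with the choice, and the differences between ranks were not tested.

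**Figure D5:**
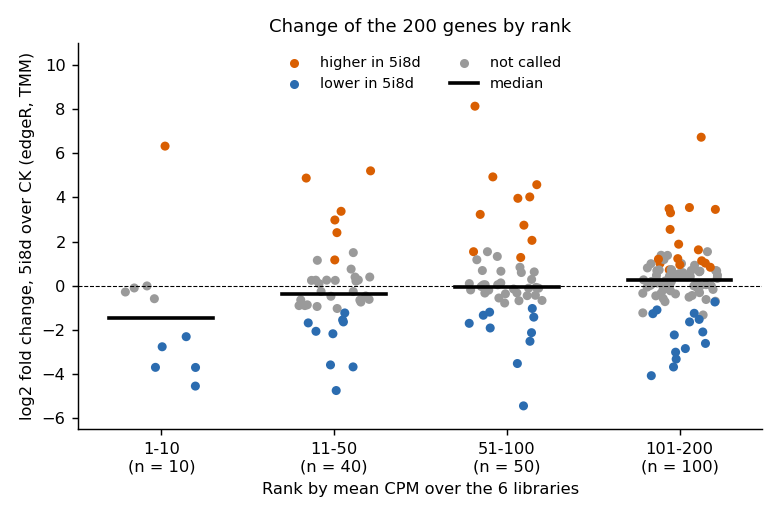
The log2 fold change of the 5i8d over the CK group (y axis) of the 200 genes, in 4 classes of rank, with genes that rose in orange, genes that fell in blue, the others in grey and a black line at the median. The median is -1.45 at ranks 1 to 10 and 0.24 at the last 100 ranks.

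The sets of abundant genes of the groups overlapped in part. By the mean of a group, 103 genes were among the 200 highest in both the CK and the 5i8d group. Of the 200 genes chosen here, these 103 were joined by 59 that reached this place in the 5i8d group alone, 37 that reached it in the CK group alone and 1 that reached it in neither. The direction of the 59 and of the 37 was largely fixed by this choice, and 30 of the 59 rose and 24 of the 37 fell. Among the 103 that were abundant in both groups, 3 rose, 14 fell and 86 did not pass the test. The 17 called were 16.5%, against 30.1% of all features tested, but a place among the 200 highest of both groups itself limits how far a gene can differ, so nothing is read from this share. The 3 that rose, at ranks 12, 46 and 51, had log2 fold changes of 2.40, 1.17 and 1.28. The fall was widest for the gene ranked 2, which still stood at place 59 in the 5i8d group.
Library by library, between 121 (CK3) and 148 (5i8d2) of the 200 genes were among the 200 highest of that library, and 53 were in all 6. In the paper's 4 libraries, 79 were in all. CK1 and CK2 shared 184 of their own 200 highest genes, and the libraries of the 5i8d group shared 129 to 144, whereas a CK and a 5i8d library shared 75 to 106. CK3 shared 130 with CK1 and 132 with CK2.
The rank correlation of CPM over the 200 genes, which are not independent, was 0.99 between CK1 and CK2, 0.75 between CK3 and either of them and 0.55 to 0.68 within the 5i8d group. Across the groups it lay between -0.12 and 0.20. The choice by a mean over both groups admits genes that were high in only 1 of them, 59 and 37 here, which lowers the correlation across groups by itself. A difference over 4-fold separated a CK and a 5i8d library at 39 to 55 of the genes, and 2 libraries of the same group at 0 to 11.

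A small part of the set was steady. In 8 genes the highest CPM over the 6 libraries was less than 1.5 times the lowest, and in 30 genes it was less than 2 times the lowest, whereas in 37 it was more than 10 times. The steadiest was the gene ranked 48, of 3898 bp, with 1136, 1208 and 1362 CPM in the CK libraries and 1196, 1163 and 1136 CPM in the 5i8d libraries (log2 fold change -0.26, standard error 0.24, adjusted p = 0.46). The gene ranked 15, of 7506 bp, had 3141, 2762 and 3133 CPM against 3493, 3299 and 4063 CPM (log2 fold change 0.09, standard error 0.26, adjusted p = 0.83). Its CPM did not overlap between the groups, but the difference was small. The gene ranked 75, of 6496 bp, had 851, 937 and 967 CPM against 1089, 1001 and 729 CPM, with the groups overlapping. The other 5, at ranks 98, 168, 174, 188 and 196, had log2 fold changes between -0.37 and 0.11, none of which passed the test. These 8 were 3210 to 7781 bp long. Their standard errors of 0.22 to 0.26 on the log2 scale leave room for small changes, so that an equal level was not shown.

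The length of the 200 genes had a median near that of all annotated genes. It was 2613.5 bp (25th percentile 1403 bp, 75th percentile 4818 bp), against 2482 bp over the 19500 annotated genes of the same range and 3961 bp over the next 200 by rank. There were 35 genes (17.5%) under 1000 bp against 14.6% of the annotated genes, and 29 (14.5%) over 6000 bp against 9.39%. The 14878 annotated genes of this range that were tested had a median of 2854 bp. Of these, 8.81% were under 1000 bp and 11.4% over 6000 bp. The 10 highest were long, with a median of 5455.5 bp. Per kilobase, the gene ranked 2 was the highest of the 200 with a mean of 3467 FPKM (here the CPM divided by the length in kilobases), followed by gene6500 with 2941 FPKM, and the gene ranked 175, of 9637 bp, was the lowest with 56.2 FPKM. Of the 200 genes, 132 were also among the 200 highest by mean FPKM, which had a median length of 1183 bp.
Of the 35 genes under 1000 bp, 2 rose and 3 fell (14.3% called), against 21.4% of the tested annotated genes of that length. Of the 45 from 1000 to 2000 bp, 9 rose and 4 fell (28.9%), against 24.2%. Of the 29 over 6000 bp, 4 rose and 10 fell (48.3%), against 38.9%, so that the share called was also larger in long genes over all annotated genes tested. These shares were not tested. The rank correlation of length with log2 fold change over the 200 genes was -0.19. The genes over 6000 bp took 5.06%, 4.82% and 4.69% of the counts in the CK libraries and 3.08%, 3.07% and 3.27% in the 5i8d libraries. The groups did not overlap in this share. The genes from 1000 to 2000 bp went the other way, from 4.33% to 4.76% in the CK and from 4.79% to 6.42% in the 5i8d libraries. In the other classes of length the groups overlapped. The genes were chosen by their level, and an effect of length was not tested. The genes under 1000 bp had the largest median absolute shift of the 5 classes of length, 0.83 on the log2 scale in CK3 and 0.74 in 5i8d3, and their median shift in CK3 from CK1 and CK2 was -0.57, against 0.12 for the genes over 6000 bp. In 5i8d3 the median shifts were 0.11 and 0.05, so that the short genes as a class were not shifted the same way in both libraries.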

How the data were processed

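RNA of 3 CK and 3 5i8d libraries was sequenced after rRNA removal. The paper describes digestion of the second cDNA strand with UNG. The authors deposited unnormalized read counts for annotated genes and assembled loci, and FPKM made from them. Tools in the submitters' notes are HTSeq, FastQC 0.10.1 and DESeq2 1.16.1. The aligner, the genome build and the strand setting used in counting were not given in the sources used here, so overlapping, antisense or duplicated genes may share reads. Columns were matched to libraries by title. Length was computed from the count, FPKM and library total, and was the same in every library within 8.69e-10 bp. Of the annotated genes, 583 were shorter and 401 longer than the range used.

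The whole count table was fitted with edgeR 4.0.16 in R 4.3.3 (quasi-likelihood test after filterByExpr and TMM scaling, with p-values adjusted over all features by Benjamini and Hochberg and called under 0.05), and only rows of the 200 genes are printed. All 200 passed the filter. A standard error is the absolute log2 fold change over the square root of F. CPM use library totals, except in the SDs of log2 CPM, which use TMM scaling. Shares were compared with an exact permutation test. The fit was run on simulated counts with known changes, without a shift shared by libraries of both groups. Recovery was required only at a low fixed spread, so how the fit does at the spread of these data is not given. Alternatives used DESeq2 1.42.0, and figures matplotlib 3.10.9.

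Deviations from the group means over 17757 features correlated by 0.42, 0.55 and 0.67 for numbers 1, 2 and 3. The main fit held the group only. For the block alone, the numbers were taken to pair the libraries, although CK1 correlated with 5i8d2 (0.47) above 5i8d1. Neither labels nor paper state a pairing. Deviations cancel out within a group, so a joint shift of the libraries numbered 3 alone makes the others correlate. This check cannot tell whether numbers 1 and 2 are pairs. The block is therefore given beside the counts it moves.

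The genes, rules and lists were chosen with earlier results of these data known. IDs were named by the largest fold change and largest change of CPM per direction among changed genes without overlap (at most 2 each, as they carry no names). By rank, the 10 highest and the largest changes were described. Genes ranked 11, 46, 51 and 150, the steady ones and those of the closing section were chosen after their values were seen. Marker lists were not used.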

Additional observations from a re-analysis of the deposited data

How the results depend on the processing

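The 4 genes given by ID kept their direction and passed the test under each of the 12 alternatives run for them (48 values), with log2 fold changes of 7.86 to 8.39 for gene19606, 6.07 to 6.53 for gene6500, -5.80 to -5.13 for gene998 and -3.02 to -2.60 for gene2091. These genes were picked for the largest changes in the same libraries, so that the alternatives are not independent of the choice. The replicate block moved the counts from 33 and 38 to 57 higher and 58 lower genes and lost none of the 71 calls. Leaving out 1 library gave 23 to 33 higher and 29 to 37 lower genes, a median log2 fold change of -0.07 to 0.24, a difference in share of -2.78 to 0.50 percentage points for the 200 genes, reversed without 5i8d1, and of -4.74 to -3.45 for the 10 highest. Where a group kept only 2 libraries, the spread was pooled over both groups. Other choices of genes moved the counts. Among 200 chosen by mean of ranks, 12 were higher (6%) and 33 lower (16.5%). Among the 100 highest, 17 were higher (17%) and 24 lower (24%). Among the 400 highest, 66 were higher (16.5%) and 69 lower (17.25%), and the counts of these last 2 sets follow their size. Over all features tested, 18.9% were higher and 11.2% lower. Chosen by mean FPKM, the median length was 1183 bp. Without CK3 the median SD of log2 CPM in the CK group was 0.074. Over the other results, 70 values stayed within 1.5 times the count, within the spread between libraries or, for the shares, kept their sign. No p-value under 0.05 was possible for a share, so that a share of any size with the same sign counted as unchanged. DESeq2 gave 37 higher and 42 lower, and the library totals alone 42 and 33. With the totals alone, the median log2 fold change of all features also moved, from 0.04 to 0.21. The shares called over all features are not given for these alternatives or with a library left out. Nothing about the 200 genes is therefore read from these counts. Alternatives on the share of the 10 highest, on places, length and spread were added after seeing the data. The lowest count of any of the 200 genes was 179.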

Other observations

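Some of the 200 genes have ID numbers close to each other. The sources used here do not say whether the numbers follow the order of genes along the chromosomes, and this pattern was looked for after the values were seen. With a gap of at most 6 between numbers, 25 of the 200 genes fell into 11 runs. In 1 run all genes rose and in 2 runs all fell. Over all features tested, 18.9% were higher and 11.2% lower. How often other genes of the table form such runs was not counted, so nothing is read from these numbers. The run that rose held gene19606 and the genes ranked 24, 54 and 71, of 1459, 1742 and 1781 bp, with log2 fold changes from 3.23 to 8.13. The gene ranked 54 had 139, 135 and 64.1 CPM in the CK libraries and 1837, 2805 and 1463 CPM in the 5i8d libraries, and that ranked 71 had 199.4, 178 and 123 CPM against 1641, 2129 and 1474 CPM. Of the runs that fell, 1 held gene998 and the gene ranked 38, of 4010 bp, with 3449, 2733 and 1937 CPM against 199.3, 77.2 and 64.8 CPM. The other held the genes ranked 69, 120 and 171, with log2 fold changes from -3.32 to -1.53. In the other 8 runs the genes were not all called in the same direction.

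The widest spread within each group belonged to a gene under 1000 bp. The gene ranked 97, of 547 bp, had 142, 1059 and 2078 CPM in 5i8d1, 5i8d2 and 5i8d3, a ratio of 14.7, the largest within the 5i8d group. That ranked 149, of 781 bp, had 484, 545 and 49.4 CPM in CK1, CK2 and CK3, a ratio of 11, the largest within the CK group. Neither passed the test between the groups (adjusted p = 0.36 and 0.39 from edgeR's quasi-likelihood test).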
